A study of Mus musculus with 4 samples.

Results

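The genes described are 9 components of MHC class I antigen presentation, selected by name from the 25704 genes listed in each library: the heavy chain genes H2-K1, H2-D1 and H2-T23, the light chain gene B2m, the peptide transporter genes Tap1 and Tap2, the loading factor gene Tapbp, the trimming enzyme gene Erap1 and the regulator gene Nlrc5. Expression was measured by RNA-seq in CMT64 cells, an established line from a lung carcinoma of a C57BL/lcrf mouse. The 4 libraries were a control, cells given 5 ng/ml of TGF-β, cells given 10 ng/ml of TNF-α, and cells given both cytokines at these doses (costimulation), all harvested at 24 h, with 1 library per condition. The control was labelled only as a negative control, and all cells shared the same medium with serum. Because each condition had 1 library of 1 cell line, no value below has a replicate, and a difference between 2 libraries includes any difference between the 2 cultures.

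Class I molecules display peptides from inside the cell to cytotoxic T cells and natural killer cells. A heavy chain folds with β2-microglobulin in the endoplasmic reticulum, the TAP transporter brings in peptides cut by the proteasome, tapasin holds the empty heavy chain beside the transporter, and the aminopeptidase ERAP1 trims peptides to fit the groove. Interferon-γ, through IRF1 and the transactivator NLRC5, raises many of these genes together, and NF-κB, which TNF-α activates, has a site in classical class I promoters. CMT64 cells are known as a line with little surface class I and little TAP.

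Mapped reads per library ranged from 75358896 to 81245906, and 86.7% to 88.5% of exon reads were uniquely mapped. The keratin genes Krt8, Krt18 and Krt19 and the E-cadherin gene Cdh1 marked the cells as epithelial, whereas the epithelial markers Epcam (7 to 16 reads), Cldn7 (5 to 7 reads) and Sftpc (0 to 1 read) were near 0. With TGF-β, 4 of the 5 epithelial markers tested fell, against 19.9% of all genes tested. Cdh1, 1 of these 4, was at 251, 134, 253 and 121 RPKM in control, TGF-β, TNF-α and costimulated cells. The summed level of 10 haematopoietic and antigen presenting cell markers was 1.84 to 2.18 RPKM, with Ptprc at 1 to 6 reads and Cd3e at 0 to 3 reads. Of these 10, 4 were tested and 6 had under 10 reads in each library. With TGF-β, edgeR called 1 of the 4 higher and 1 lower, against 18.6% and 19.9% of all genes tested. DESeq2 called 1 higher and 0 lower. Csf1r, from this list, had more reads in the libraries with TGF-β, as given under other observations. The 8 endothelial and fibroblast markers summed to 0.0871, 0.182, 0.114 and 0.254 RPKM, and the fibroblast gene Dcn was at 0 to 1 read. Pdgfrb, from this list, had more reads with TGF-β, as also given there. The part of the epithelial change in the class I values was not tested.

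Of the 9 genes, 6 lay in or beside the MHC on mouse chromosome 17, between positions 33915899 and 36032855 of mm10. On the minus strand were H2-K1 (33996017 to 34000333) and H2-T23 (36029773 to 36032855). On the plus strand were Tapbp (33915899 to 33929288), Tap1 (34187553 to 34197225), Tap2 (34203527 to 34216321) and H2-D1 (35262730 to 35267499). Outside it, B2m lay on chromosome 2 (122147686 to 122153083), Erap1 on chromosome 13 (74639568 to 74693201) and Nlrc5 on chromosome 8 (94434356 to 94527272), all on the plus strand.

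The promoter windows of the heavy chain genes and of B2m are shown because these genes moved in opposite directions after TGF-β. Each window holds 250 bases before and 50 bases after a start annotated for the gene in RefSeq on GRCm38.p6: H2-K1 at chr17:34000298-34000597 (minus), H2-D1 at chr17:35262844-35263143 (plus), H2-T23 at chr17:36032652-36032951 (minus) and B2m at chr2:122147437-122147736 (plus). These starts need not match the gene limits given above, which come from the deposited tables. The H2-D1 window lies wholly inside those limits. Capitals mark matches, on either strand, to GGGNNTTCC (an NF-κB-like site), GAAA on either side of any 2 bases (an interferon response-like site, called the long form here) or its short form GAANNGAAA, TGACGC (part of the X2 box of the SXY module that NLRC5 uses) and CCAAT (the core of the Y box).
H2-K1: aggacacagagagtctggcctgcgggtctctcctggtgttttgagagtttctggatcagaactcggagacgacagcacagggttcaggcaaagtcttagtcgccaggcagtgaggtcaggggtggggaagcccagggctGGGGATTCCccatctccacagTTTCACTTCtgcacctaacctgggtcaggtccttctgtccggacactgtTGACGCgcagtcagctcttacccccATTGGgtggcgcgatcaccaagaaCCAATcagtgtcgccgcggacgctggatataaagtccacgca
H2-D1: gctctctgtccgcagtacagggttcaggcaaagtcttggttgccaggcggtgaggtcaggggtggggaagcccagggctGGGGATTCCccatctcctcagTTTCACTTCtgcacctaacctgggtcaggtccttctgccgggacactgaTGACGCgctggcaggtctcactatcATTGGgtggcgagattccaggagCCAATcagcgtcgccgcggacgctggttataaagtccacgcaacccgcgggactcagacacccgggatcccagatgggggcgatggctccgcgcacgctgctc
H2-T23: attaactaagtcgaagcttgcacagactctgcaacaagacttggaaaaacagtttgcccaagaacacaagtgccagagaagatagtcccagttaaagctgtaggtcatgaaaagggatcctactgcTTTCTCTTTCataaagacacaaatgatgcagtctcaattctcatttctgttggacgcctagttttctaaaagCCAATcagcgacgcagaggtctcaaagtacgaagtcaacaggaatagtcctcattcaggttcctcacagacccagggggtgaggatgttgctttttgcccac
B2m: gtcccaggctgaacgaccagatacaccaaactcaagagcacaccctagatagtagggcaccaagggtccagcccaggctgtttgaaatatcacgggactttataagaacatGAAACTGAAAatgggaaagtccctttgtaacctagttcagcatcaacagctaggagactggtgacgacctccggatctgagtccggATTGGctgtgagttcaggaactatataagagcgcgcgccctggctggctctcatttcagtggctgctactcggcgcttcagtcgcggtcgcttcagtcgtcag
H2-K1 and H2-D1 had the same arrangement of marked sites: GGGGATTCC, then TTTCACTTC, TGACGC and a pair of CCAAT matches on opposite strands. They shared an unbroken run of 47 bases around the NF-κB-like site, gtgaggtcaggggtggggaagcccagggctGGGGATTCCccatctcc. H2-T23 and B2m had no match to GGGNNTTCC or TGACGC in these windows, and each had 1 match to the long interferon response-like form and 1 to CCAAT.

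Windows were found for 7 of the 9 genes, the others being Tap2 and Nlrc5. Of the 3 further windows, that of Tap1 had 1 CCAAT match, that of Tapbp had 2, and that of Erap1 had 1 match to the long interferon response-like form. The windows of Tapbp (chr17:33919228-33919527) and Erap1 (chr13:74639603-74639902) also lay wholly inside the gene limits given above. They therefore do not cover the bases before those limits. H2-K1 had a second window, at chr17:34000284-34000583, with the same marked sites. Among 32851 mouse promoter windows of this length, GGGNNTTCC occurred in 5.82%, the long interferon response-like form in 3.44%, TGACGC in 7.40% and CCAAT in 37.4%. GAANNGAAA, which was added after the sequences were seen, occurred in 7.52%. No marked site overlapped another, and a match is a description of the letters only. Only these exact patterns were searched, so a window without a match may still hold a looser form of a site.

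Levels are given as RPKM, which is reads divided by exon length in kilobases and by the mapped reads of the library on a fixed scale, in the order control, TGF-β, TNF-α and costimulation, with 95% Poisson intervals that cover counting error only. H2-K1, a classical heavy chain, was at 71.4, 37.0, 71.7 and 46.8 RPKM, from 9149, 5117, 9464 and 6054 exon reads. H2-D1, the other classical heavy chain of this haplotype, was at 63.0, 38.5, 58.4 and 47.2 RPKM, from 10707, 7057, 10228 and 8093 reads. H2-T23, which encodes the nonclassical heavy chain Qa-1 that binds the NKG2A receptor of natural killer cells, was at 81.5, 33.3, 69.9 and 35.6 RPKM, from 9036, 3983, 7980 and 3987 reads. All 3 heavy chains were higher in both libraries without TGF-β than in both libraries with it. H2-T23 was the highest heavy chain in control cells and the lowest in both TGF-β-treated libraries.

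B2m, the light chain shared by all class I molecules, showed the opposite order, at 100.4, 192, 117 and 228 RPKM from 6505, 13433, 7791 and 14896 reads. It was the highest of the 9 genes in every library by total reads, and both libraries with TGF-β lay above both without it. On unique reads B2m was below all 3 heavy chains in control and TNF-α-treated cells. In control, 99.9% of unique B2m reads crossed an exon junction, against 46.2% for H2-K1, 49.6% for H2-D1 and 53.4% for H2-T23. Unique-read levels were still divided by the full exon length, so they do not rank B2m against the heavy chains. Summed over H2-K1, H2-D1 and H2-T23, heavy chain levels were 216 RPKM in control and 109 RPKM in TGF-β-treated cells, the highest and the lowest of the 4 libraries. The ratio of this sum to the B2m level was 2.15 in control cells, 1.71 after TNF-α alone, 0.566 after TGF-β alone and 0.569 after costimulation. Counted on unique reads alone, the ratio was 6.63 in control cells, 5.21 after TNF-α, 1.84 after TGF-β and 1.76 after costimulation. B2m had a much smaller unique share, so whether the ratio exceeded 1 depended on the reads counted. On either count it was lower in both libraries with TGF-β.

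The TAP subunit genes were low in all libraries. Tap1 was at 0.337, 0.138, 0.524 and 0.160 RPKM, from only 75, 33, 120 and 36 reads. Tap2 was at 0.972, 0.258, 1.16 and 0.380 RPKM, from 259, 74, 318 and 102 reads. Both were highest with TNF-α alone and lowest with TGF-β alone. Counting intervals overlapped between TGF-β alone and costimulation for both genes, and between control and TNF-α alone for Tap2. Tapbp, which encodes tapasin, was well above them at 21.4, 22.5, 23.3 and 29.2 RPKM, with its highest level under costimulation. Its ratio to the summed Tap1 and Tap2 levels was 16.3, 57.0, 13.8 and 54.1.

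Erap1 was at 1.86, 3.40, 2.63 and 3.64 RPKM, from 799, 1572, 1161 and 1575 reads, lowest in control cells and higher in each treated library. Nlrc5, the transactivator of class I genes, had 5, 5, 4 and 6 exon reads over 8163 bases of exon, or 0.00813, 0.00754, 0.00631 and 0.00967 RPKM with overlapping intervals. Intron reads made up 50% to 73.3% of all Nlrc5 reads, against 0% to 11.3% in the other 8 genes. At this depth no difference in Nlrc5 was detectable between conditions.

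By total reads the order of levels was B2m, the 3 heavy chains, Tapbp, Erap1, Tap2, Tap1 and Nlrc5 in every library. Counting intervals of neighbours overlapped for H2-D1 and H2-K1 with TGF-β and with costimulation, and for H2-K1 and H2-T23 with TNF-α. No other neighbours overlapped in any library.

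**Figure D1:**
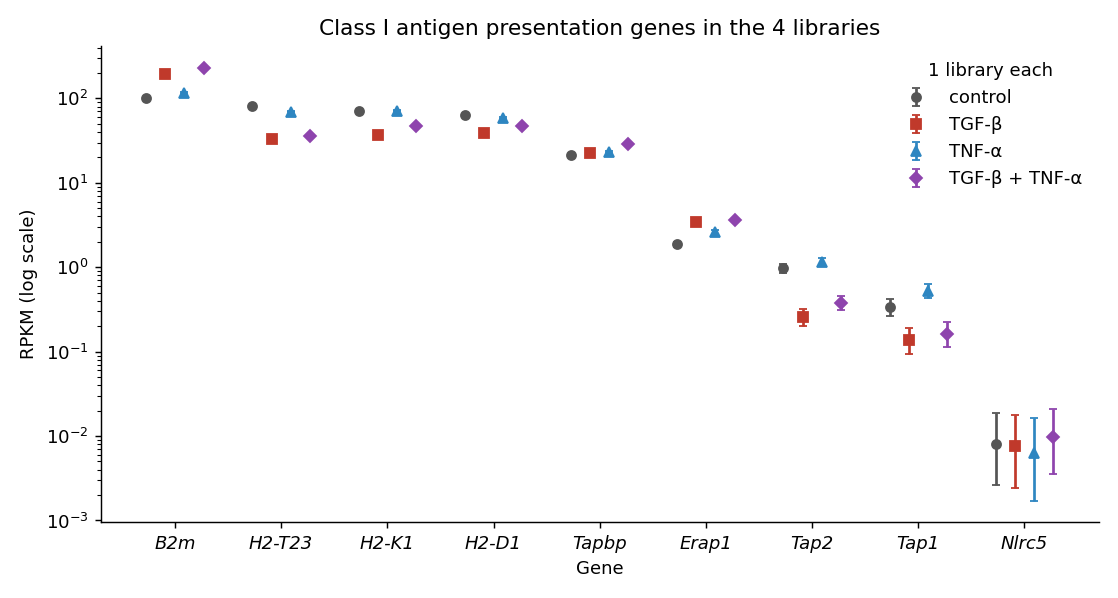
RPKM of the 9 genes on a log scale in the 4 libraries, 1 library each; bars are 95% Poisson counting intervals. H2-T23, H2-K1 and H2-D1 lie lower in the libraries with TGF-β, B2m lies higher there, and Nlrc5 lies at or under 0.00967 RPKM throughout.

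Whether TGF-β changed class I genes was asked with an additive model of both cytokines, in which the departure of the 4 libraries from additivity stood in for replicate spread (edgeR quasi-likelihood test, 1 residual degree of freedom, Benjamini-Hochberg adjustment over 13509 genes). All 3 heavy chains and both TAP genes fell, while B2m and Erap1 rose. Of the 8 members that passed the filter on low counts, 5 fell against 19.9% of all genes tested and 2 rose against 18.6%. Nlrc5 did not pass the filter, and Tapbp did not pass the test. The median log2 fold change of the 8 members was -0.71, against 0.01 over all genes tested. In bulk RNA, fewer cells with a transcript and less transcript per cell cannot be told apart.

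Among the heavy chains, H2-T23 fell most, with a log2 fold change of -1.20 (SE 0.15, edgeR adjusted p = 4.32e-14). H2-K1 followed at -0.85 (SE 0.15, edgeR adjusted p = 9.03e-08) and H2-D1 at -0.58 (SE 0.14, edgeR adjusted p = 3.46e-04). In the direct comparison of TGF-β with control, H2-T23 was at 0.409 of its control level (95% counting interval 0.394 to 0.424), H2-K1 at 0.519 (0.501 to 0.537) and H2-D1 at 0.611 (0.593 to 0.630). In the presence of TNF-α the same order was seen with smaller decreases, 0.510 (0.491 to 0.530) for H2-T23, 0.653 (0.633 to 0.675) for H2-K1 and 0.808 (0.785 to 0.832) for H2-D1. The H2-D1 call was kept in 10 of 11 alternatives. It was lost without the library with TGF-β alone, where the log2 fold change was -0.43. That refit had no TNF-α term and left 1 library with TGF-β, so the loss cannot be laid on the omitted library.

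B2m rose by a log2 fold change of 0.88 (SE 0.14, edgeR adjusted p = 6.09e-09). TGF-β over control was 1.92-fold (1.86 to 1.97) and costimulation over TNF-α was 1.95-fold (1.9 to 2.01). By mapped reads the increase was thus nearly the same size with and without TNF-α. Scaled for GC content and length, these folds were 1.70 and 1.94, so the likeness in size depended on the scaling.

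Both TAP subunit genes fell from low levels. Tap2 changed by -1.82 (SE 0.27, edgeR adjusted p = 2.01e-10) and Tap1 by -1.57 (SE 0.39, edgeR adjusted p = 2.36e-04). Tap2 was at 0.265 of its control level (0.202 to 0.344) and Tap1 at 0.408 (0.262 to 0.622), and with TNF-α present they were at 0.328 (0.259 to 0.411) and 0.306 (0.205 to 0.448). Their counting intervals overlapped in both comparisons, so their decreases could not be ranked, and the Tap1 interval over control also included the H2-T23 value. Tapbp had a log2 fold change of 0.13 (SE 0.15, edgeR adjusted p = 0.526), with folds of 1.05 (1.01 to 1.10) over control and 1.26 (1.21 to 1.30) over TNF-α.

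Erap1 rose by 0.60 on the log2 scale (SE 0.15, edgeR adjusted p = 4.07e-04). Its increase was 1.82-fold (1.67 to 1.99) over control and 1.39-fold (1.28 to 1.5) over TNF-α. The Erap1 call was kept in 10 of 11 alternatives. It was lost without the costimulation library, where the log2 fold change was 0.53. That refit also had no TNF-α term and left 1 library with TGF-β. Without the control library, again with no TNF-α term, Erap1 was at 0.36. A correction for GC content and length left it at 0.39 (edgeR adjusted p = 0.00159).

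**Figure D2:**
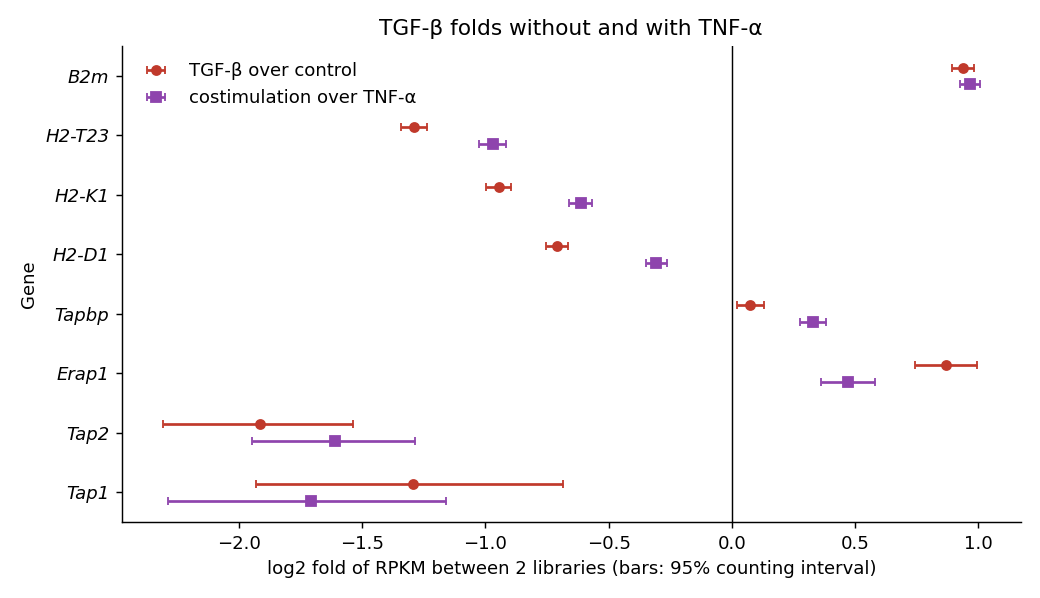
Log2 fold of RPKM for TGF-β over control (circles) and costimulation over TNF-α (squares) in 8 genes, 1 library per condition, with 95% counting intervals as bars. H2-T23, H2-K1, H2-D1, Tap1 and Tap2 lie left of 0 in both comparisons and B2m and Erap1 lie right of it.

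Single libraries were also compared by the limit the study used for higher genes, more than 2-fold with RPKM above 2, applied here in both directions, and 6 members reached that level. H2-T23 alone was past 2-fold for TGF-β over control, where 11.8% of 9856 genes were, a share of the members near the background. None of the 6 was past 2-fold for costimulation over TNF-α, where 9.85% of genes were. H2-K1 at 0.519, B2m at 1.92 and H2-T23 at 0.510 with TNF-α were just inside these limits. By the study's separate limit for genes lowered by TGF-β, under 0.25 of control with control RPKM above 1, none of 6 eligible members was called, and 2.52% of 10321 genes were. For costimulation over control, H2-T23 at 0.438 (0.421 to 0.454) and B2m at 2.27 (2.21 to 2.34) were past 2-fold, against 12.0% of genes.

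Base composition differed between the members that rose and those that fell. Transcript GC content was 41.2% for B2m and 41.5% for Erap1, the genes that rose, and 54.3% to 56.9% for the 5 genes that fell. Tapbp, which did not pass the test, had the highest GC content, 57.1%. Across 13416 genes, log2 folds of TGF-β over control had a Spearman correlation of -0.25 with GC content, and for costimulation over TNF-α it was 0.02 across 13410 genes; genes within these libraries are not independent. Scaled within 10 bins of GC content and of transcript length, TGF-β over control was 0.609 for H2-K1, 0.713 for H2-D1, 0.470 for H2-T23, 0.437 for Tap1, 0.289 for Tap2, 1.70 for B2m and 1.33 for Erap1. Each of these 7 genes kept its direction, and Tapbp was at 1.17. The part of base composition in the size of the folds was not tested further.

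**Figure D3:**
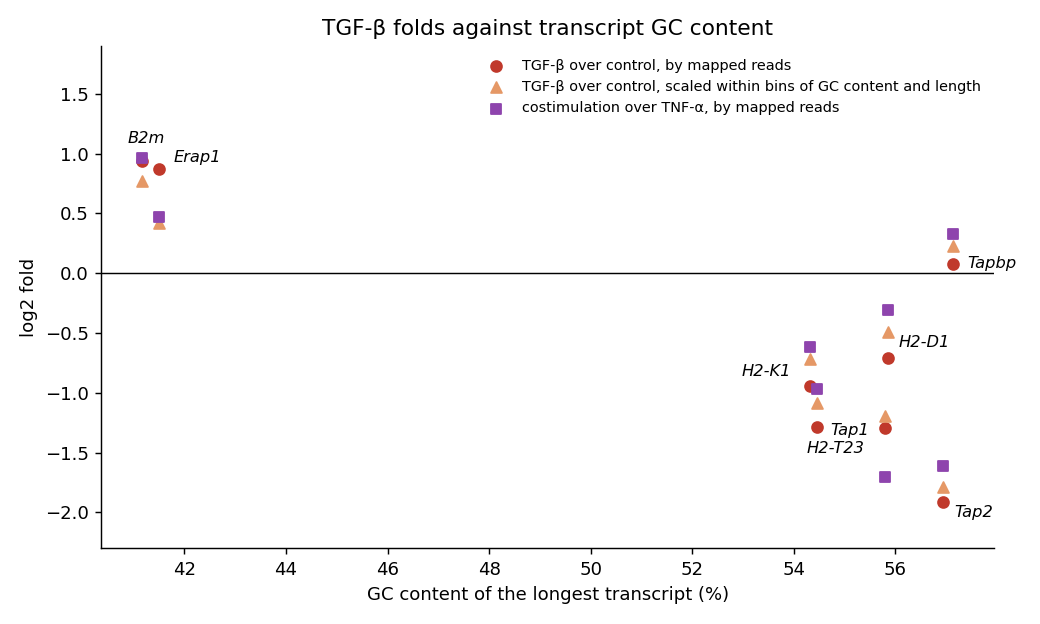
Log2 fold against GC content (%) of the longest transcript for 8 genes, for TGF-β over control before (circles) and after (triangles) scaling within bins of GC content and length, and for costimulation over TNF-α (squares). B2m and Erap1, at 41.2% and 41.5% GC, lie above 0 in all 3 sets, and the 5 genes that fell lie below 0 in all 3.

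Class I heavy chains have close copies, and reads that fit several places can be divided between them. Uniquely mapped reads made up 89.0% to 94.9% of the reads of the 3 heavy chains. Only 28.0% to 30.2% of B2m reads were unique, and 1930 of 1932 unique B2m reads in control cells and 3760 of 3761 with TGF-β crossed an exon junction. Counted on these junction reads alone, a choice made after the data were seen, B2m was 1.81-fold (1.71 to 1.91) higher with TGF-β than in control and 1.91-fold (1.81 to 2.01) higher with costimulation than with TNF-α. With unique reads in the additive model, all 7 calls held, 5 lower and 2 higher.

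Whether TNF-α changed class I genes was asked in the same model, and no member passed the test. TNF-α raised 0.289% of the 13509 genes and lowered 0.133%. Among the 8 members 0 had an unadjusted p under 0.05 in edgeR, Erap1 being nearest at 0.0613, and DESeq2 and limma also called 0. An unadjusted p under 0.05 was found in 1 member with unique reads and in 4 with offsets for GC content and length. Log2 fold changes were 0.45 for Tap1, 0.38 for Tap2, 0.28 for Erap1, 0.24 for Tapbp, 0.22 for B2m, 0.16 for H2-K1, 0.08 for H2-D1 and -0.07 for H2-T23, with standard errors of 0.14 to 0.38. The median was 0.23, against a median of 9.27e-05 over all genes tested. With offsets for GC content and length, Tapbp passed at 0.34 (edgeR adjusted p = 0.0234, against 0.0234 to 1.0 over its 11 alternatives).

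Between single libraries the heavy chains gave small TNF-α folds, whose values differed between cells without and with TGF-β. This difference was not tested. TNF-α over control was 1.00 (0.976 to 1.03) for H2-K1, 0.928 (0.903 to 0.953) for H2-D1 and 0.858 (0.832 to 0.884) for H2-T23. Costimulation over TGF-β was 1.27 (1.22 to 1.31), 1.23 (1.19 to 1.27) and 1.07 (1.02 to 1.12). H2-D1 and H2-T23 were thus lower with TNF-α in cells without TGF-β and higher with it in TGF-β-treated cells. After scaling for GC content and length, TNF-α over control was 1.04 for H2-D1, a reversed direction, and 0.965 for H2-T23.

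The difference between the log2 TNF-α folds with and without TGF-β was 0.33 (counting interval 0.26 to 0.40) for H2-K1, 0.40 (0.34 to 0.46) for H2-D1 and 0.32 (0.24 to 0.40) for H2-T23. The middle 50% of 13359 genes lay between -0.28 and 0.21, and all 3 heavy chains lay above this range. Scaled for GC content and length, an alternative chosen after seeing the data, the differences were smaller, 0.12 for H2-K1, 0.20 for H2-D1 and 0.13 for H2-T23, against a middle range of -0.17 to 0.15, and only H2-D1 of the 3 remained above it. Tapbp was at 0.25 (0.18 to 0.33), or 0.01 when scaled. B2m was at 0.03 (-0.03 to 0.09), or 0.19 when scaled, and Erap1 at -0.40 (-0.56 to -0.23), or -0.05 when scaled. These differences therefore depended on the scaling. The intervals of Tap1 (-1.21 to 0.38) and Tap2 (-0.19 to 0.80) included 0. No test of these differences was possible with 4 libraries.

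Among the other members, B2m was 1.16-fold (1.13 to 1.20) higher with TNF-α than in control and 1.19-fold (1.16 to 1.21) higher with costimulation than with TGF-β. Tapbp was at 1.09 (1.05 to 1.13) and 1.30 (1.25 to 1.34) of its level without TNF-α. Tap1 was at 1.55 (1.15 to 2.10) over control and 1.17 (0.707 to 1.93) over TGF-β, and Tap2 at 1.19 (1.01 to 1.41) and 1.47 (1.08 to 2.02). All of these folds were above 1, but the Tap1 interval included 1 in TGF-β-treated cells. Erap1 was at 1.41 (1.29 to 1.55) over control and 1.07 (0.998 to 1.15) over TGF-β. None of the 6 members with RPKM above 2 was past 2-fold in either comparison, where 0.333% and 0.177% of genes were. GC content and log2 folds had a Spearman correlation of -0.54 for TNF-α over control and 0.07 for costimulation over TGF-β, and with GC and length scaling B2m was at 0.998 and Erap1 at 1.14 of control.

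**Figure D4:**
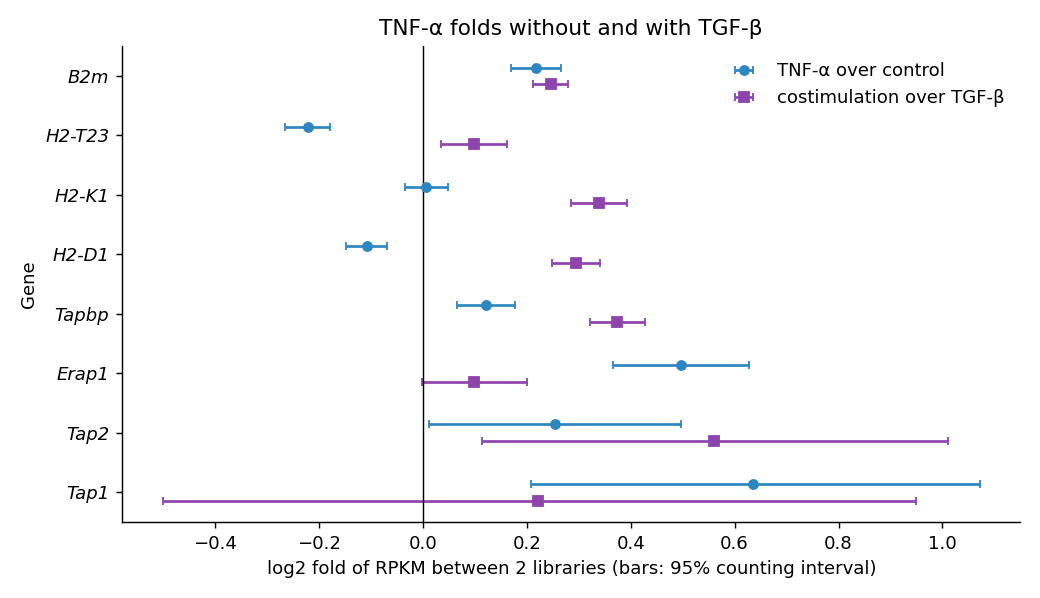
Log2 fold of RPKM for TNF-α over control (circles) and costimulation over TGF-β (squares) in 8 genes, 1 library per condition, with 95% counting intervals as bars. H2-T23 and H2-D1 lie left of 0 without TGF-β (0.858 and 0.928 on the linear scale) and right of it with TGF-β (1.07 and 1.23).

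Costimulation against control combined these changes. H2-K1 was at 0.656 (0.635 to 0.678), H2-D1 at 0.750 (0.728 to 0.772), Tap1 at 0.476 (0.311 to 0.717) and Tap2 at 0.391 (0.307 to 0.493) of control. Tapbp was at 1.37 (1.32 to 1.42) and Erap1 at 1.95 (1.79 to 2.13). Every heavy chain and both TAP genes were therefore below control in the library with both cytokines, while B2m, Erap1 and Tapbp were above it.

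Other class I and class I-like genes were mostly near the detection limit. Of 18 found, 8 were tested, and 1 fell with TGF-β, against 19.9% of all genes tested. H2-T22, a nonclassical heavy chain and the highest of this group, was at 15.5, 11.6, 15.5 and 11.4 RPKM in control, TGF-β, TNF-α and costimulated cells and changed by -0.49 on the log2 scale with TGF-β (SE 0.15, edgeR adjusted p = 0.00396). The group had a median TGF-β log2 fold change of -0.01, and none was called for TNF-α. H2-Q4, singled out after its values were seen, was at 1.61, 0.975, 2.17 and 2.30 RPKM, and its costimulation over TGF-β was 2.36-fold (1.93 to 2.90), past the 2-fold limit that 0.177% of genes passed there. Its TNF-α log2 fold change was 0.82 (SE 0.24, edgeR adjusted p = 0.129). In the MHC class II list 2 of 9 genes were tested, and 7 had under 10 reads in each library. H2-DMb1, a peptide exchange factor of class II, fell with TGF-β from 3.66 to 2.20 RPKM (log2 fold change -0.56, edgeR adjusted p = 0.0387), a call that DESeq2 did not make.

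Of the 8 genes for endoplasmic reticulum chaperones and folding enzymes, 1 rose and 1 fell with TGF-β, shares no larger than those over all genes tested (18.6% higher and 19.9% lower). Tapbpl, whose product TAPBPR exchanges class I peptides, was at 9.0, 5.46, 8.54 and 5.93 RPKM and changed by -0.69 on the log2 scale (SE 0.15, edgeR adjusted p = 3.24e-05). Only 27.5% to 30.8% of its reads were unique, and on those the change was -0.67 (edgeR adjusted p = 0.00259). Tapbpl thus fell while its paralogue Tapbp did not pass the test. Uggt1, the glucosyltransferase that checks glycoprotein folding, rose by 0.35 (SE 0.15, edgeR adjusted p = 0.0455). Hsp90b1, the most abundant chaperone of the list, stood at 218, 218, 223 and 216 RPKM.

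The inducible immunoproteasome subunits differed widely in level. Psmb8 had 0, 3, 3 and 0 reads, and Psmb9, which lies in the MHC beside Tap1, had 15, 2, 6 and 1 reads. Psmb10, the remaining inducible subunit gene, named after its values were seen, had 504, 531, 595 and 641 reads, or 5.10, 4.99, 5.85 and 6.43 RPKM. It was thus expressed where Psmb8 and Psmb9 were near 0. The proteasome activator gene Psme1 was at 36.2, 35.4, 33.5 and 36 RPKM. None of the 3 genes of this list that were tested was called for either cytokine by edgeR or DESeq2. Among 7 peptidases of the cytosol and vesicles, 1 rose and 2 fell with TGF-β in edgeR, where 18.6% of all genes rose and 19.9% fell, so these counts were near the background, and 0 and 1 did in DESeq2. Thop1, a cytosolic oligopeptidase that destroys class I peptides, was at 37.3, 20.8, 29.3 and 21.1 RPKM and fell by 0.73 on the log2 scale (SE 0.15, edgeR adjusted p = 9.60e-06). Blmh fell by 0.37 (edgeR adjusted p = 0.0369), and Lnpep, an aminopeptidase related to Erap1, rose by 0.36 (edgeR adjusted p = 0.0499), close to the threshold.

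Of the 22 interferon pathway and class I enhanceosome genes, 21 were tested, of which 4 rose and 5 fell with TGF-β (4 and 3 in DESeq2) and none was called for TNF-α. These shares were near those over all genes tested, 18.6% higher and 19.9% lower. Ifngr2, the signalling chain of the interferon-γ receptor, was at 12.7, 4.32, 13.2 and 6.47 RPKM and fell by 1.36 on the log2 scale (SE 0.15, edgeR adjusted p = 1.5e-17). Ifngr1, its ligand-binding partner and the highest gene of the list, was at 39.6, 48.2, 52.7 and 48.1 RPKM, with a log2 fold change of 0.01 (edgeR adjusted p = 0.978). The receptor chains thus differed in their TGF-β result, although the difference between them was not tested. Irf2, which binds interferon response sites, fell by 0.64 (edgeR adjusted p = 2.00e-04), and the receptor kinase gene Tyk2 fell by 0.62 (edgeR adjusted p = 2.00e-04). Rfxank, a subunit of the RFX complex that binds the X1 box, fell by 0.43 (edgeR adjusted p = 0.0151). Irf8 changed by -2.18 (edgeR adjusted p = 0.00642), but on 28, 6, 15 and 4 reads.

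Those that rose were Stat3, with a log2 fold change of 0.57 (edgeR adjusted p = 6.80e-04), Nfya, which binds the Y box (0.51, edgeR adjusted p = 0.00306), the kinase gene Jak2 (0.43, edgeR adjusted p = 0.0108) and Creb1, which binds the X2 box (0.43, edgeR adjusted p = 0.0143). Irf1 was at 4.86, 4.86, 5.85 and 5.93 RPKM, with a TGF-β log2 fold change of -0.06, and did not pass the test. Ciita, the class II counterpart of Nlrc5, had 5, 5, 5 and 7 reads. All 10 interferon ligand genes had under 10 reads in each library, and 3 of them had none in any.

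In the NF-κB list, 5 of 8 genes rose with TNF-α (4 in DESeq2), against 0.289% of all genes tested. The 0 calls among the 8 class I members tested were near that background. Nfkbia, which encodes the inhibitor IκBα, was at 18.8, 12.3, 51.4 and 26.8 RPKM and rose by 1.28 on the log2 scale (SE 0.15, edgeR adjusted p = 2.15e-13). Nfkbie rose by 1.29 (edgeR adjusted p = 3.73e-06), Relb by 1.24 (edgeR adjusted p = 1.94e-12), the feedback inhibitor gene Tnfaip3 by 0.74 (edgeR adjusted p = 7.43e-04) and Nfkb2 by 0.58 (edgeR adjusted p = 0.0351). Relb and Nfkb2 encode subunits of the noncanonical NF-κB pathway. With TGF-β, Nfkbia fell by 0.85 (edgeR adjusted p = 1.67e-07) and Tnfaip3 rose by 1.20 (edgeR adjusted p = 9.59e-14). Rela, the most abundant subunit, was at 47.9, 52.5, 45.5 and 57.2 RPKM and was not called for either cytokine.

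**Figure D5:**
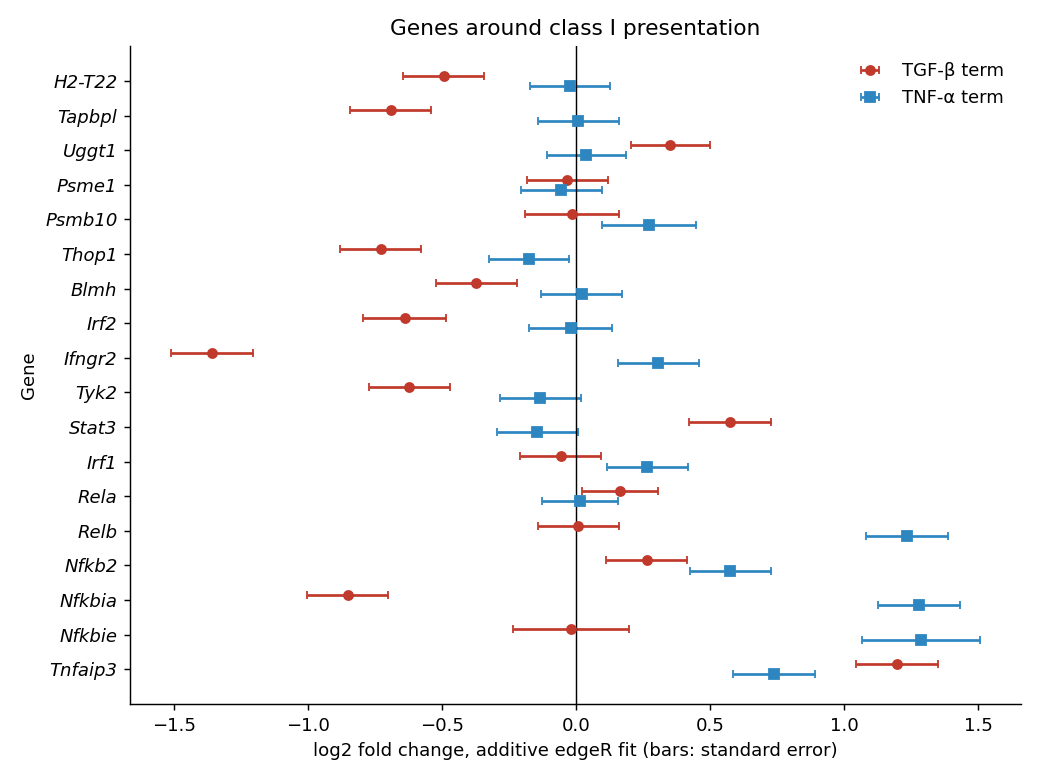
Log2 fold change of the TGF-β term (circles) and TNF-α term (squares) of the additive edgeR fit over 4 libraries, with standard errors as bars, for related genes. Relb, Nfkbia and Nfkbie lie at 1.24, 1.28 and 1.29 for TNF-α, and Ifngr2 has the lowest TGF-β value of the genes drawn at -1.36 (Irf8, at -2.18 on few reads, is not drawn).

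Likeness of pattern was measured as the Euclidean distance between log2 folds over control in the 3 treated libraries, over 9920 genes with RPKM above 2 in at least 1 library. The genes nearest to H2-K1 were Psrc1, Tsku and Echdc2, each at a distance of 0.110, then Gdf15 at 0.146 and Ier5 at 0.158. Psrc1, for example, was at 12.7, 6.39, 12.0 and 8.13 RPKM. Among the members, H2-D1 was the 138th nearest gene at 0.326 and H2-T23 the 1513th at 0.715. Tapbp was the 6185th at 1.48, Erap1 the 9109th at 2.45 and B2m the 9261st at 2.61. Tap1, Tap2 and Nlrc5 were below the RPKM limit and were not compared. B2m and Erap1 were thus among the genes least like H2-K1 by this measure, and H2-T23 was farther from H2-K1 than H2-D1 was.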

How the data were processed

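Poly(A)-enriched RNA of 4 CMT64 cultures, 1 per condition, was sequenced. The authors trimmed adapters, mapped reads and counted them in CLC Genomics Workbench (version not given in the sources used here), and the submitters' processing notes name mm10. The deposited tables hold, per gene, counts of total, unique, junction and intron reads and RPKM, which the authors computed from total exon counts and mapped reads. How reads with several hits were divided, and whether strand was used, is not given in the sources used here.

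Total exon read counts were tested with edgeR 4.0.16 (R 4.3.3, TMM, filterByExpr, robust quasi-likelihood fit, additive TGF-β and TNF-α terms, all 4 libraries), at a Benjamini-Hochberg adjusted p of 0.05. With 1 residual degree of freedom, p-values test each cytokine term against a spread estimated from departures from additivity and shared across genes. That spread does not come from replicates. Folds between libraries are RPKM ratios with 95% exact conditional binomial intervals, which cover counting error only. The study's RPKM and fold thresholds of 2 for higher genes were mirrored for lower genes, and its own limit for genes lowered by TGF-β (fold under 0.25, control RPKM above 1) was added after the data were seen. DESeq2 1.42.0, limma 3.58.1 on log2(RPKM + 0.5), other scalings, filters, unique reads, GC content and length corrections and leaving out each library were alternatives. GC content came from the longest GENCODE M21 transcript, and promoter windows from RefSeq. The fitting script was tested on simulated data. Tables used Python 3.11.15. All members were named, and of each related list up to 4 called genes with the largest fold change, called genes against their list's majority, the most abundant gene and some fixed genes. Values of some genes that the rule names are not reported here. The members and lists were chosen with earlier results of these data known.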

Additional observations from a re-analysis of the deposited data

Results flagged for a closer look

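The TNF-α fold of H2-D1 was below 1 without TGF-β and above 1 with it, and the log2 folds differed by 0.40 (counting interval 0.34 to 0.46). H2-T23 showed the same opposite directions, with a difference of 0.32 (0.24 to 0.40). With 1 library per condition neither difference was tested. With unique reads the differences were 0.41 and 0.33, and after scaling for GC content and length they were 0.20 and 0.13. The H2-D1 fold without TGF-β was 1.04 after scaling for GC content and length, and the directions were then no longer opposite.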

How the results depend on the processing

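No called member changed direction. Among uncalled values the sign changed in 1 of 88 refits for TGF-β (Tapbp) and in 14 of 88 for TNF-α, 13 of these with a library left out and TGF-β not a term, where its effect enters the TNF-α value. Across 11 alternatives per gene, 85 of the TGF-β results kept their call, 2 lost it and 1 gained it, and for TNF-α 1 gained a call. Of the 88 TNF-α refits, 40 came from 5 alternatives that called none of the genes tested, so that only the other 48 could have called a member. Leaving out 1 library at a time, with only the tested cytokine as a term, gave 1 to 2 members higher and 4 to 5 lower with TGF-β; the lowest values came without the costimulation library (Erap1) and without the TGF-β library (H2-D1). GC content and length offsets gave 1 member higher with TNF-α and also called Tapbp for TGF-β at 0.24 (edgeR adjusted p = 0.0135, against 0.0135 to 0.920 over its alternatives). No paired analysis was possible because each condition had 1 library.

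Members past the fold limit for TGF-β over control numbered 2 under TMM or size factor scaling, 5 at 1.5-fold, 3 on unique junction reads and 0 with the study's own limits for higher and lower genes, against 1. For costimulation over TNF-α there were 1 under TMM or size factor scaling, 3 at 1.5-fold, 1 at RPKM above 1 and 1 on junction reads, against 0. For costimulation over control there were 4 at 1.5-fold, 3 on unique reads, 3 on unique junction reads and 1 with GC and length scaling, against 2. Junction reads, the study's lower limit, unique-read levels and the scaled departures were chosen after seeing the data. TMM moved the median log2 fold by -0.08 to -0.01. For TNF-α, edgeR called 39 genes higher and 18 lower of all tested, and DESeq2 17 and 1. The causes were not tested. At most 120 reads of Tap1 per library limit its folds, and Nlrc5 was not tested in the main fit. Nlrc5 entered only DESeq2 and the fit without a filter on low counts, and neither called it.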

Other observations

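Among 10 genes often used as references, none was called for TNF-α. With TGF-β 3 fell (2 in DESeq2) and 0 rose, against 19.9% and 18.6% of all genes tested. The median TGF-β log2 fold change of these 10 was -0.24, against 0.01 over all genes tested. With TGF-β, Gapdh was at 6936, 2618, 5557 and 2742 RPKM in control, TGF-β, TNF-α and costimulated cells (log2 fold change -1.28, edgeR adjusted p = 4.75e-28), and only 0.93% to 1.08% of its reads were unique. Rplp0 fell by 0.31 (edgeR adjusted p = 0.0210).

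Csf1r, a macrophage receptor gene, had 4, 20, 0 and 83 reads, and Pdgfrb 2, 34, 1 and 56 reads, both higher in the libraries with TGF-β. The airway and alveolar regulator gene Nkx2-1 had 189, 1, 177 and 9 reads.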
